A study of Mus musculus with 2 samples.

Results

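Retroelements are virus-like sequences that can copy themselves into new places of the genome, and the genes described here are 8 factors that silence them in mouse cells: the co-repressor Trim28, the histone methyltransferase Setdb1 and its partner Atf7ip, the HUSH subunits Mphosph8 and Pphln1, the ATPases Morc2a and Morc3, and the zinc finger gene Zfp809. They were chosen by symbol, and all 8 were found among the 43629 genes counted in both libraries. The 2 libraries, B and A, form 1 group of untreated Drosha knockout embryonic stem cells from the blastocyst, on the 129/Ola background, grown in serum with LIF (a cytokine that maintains self-renewal) and at passage 7. Drosha is the ribonuclease that starts the processing of most microRNAs, and the series title names a paired CRISPR/Cas9 approach. Poly-A RNA was sequenced, and no library of another genotype was analysed here, so no level below is compared with wild-type cells.

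KRAB zinc finger proteins bind retroelement DNA and bring in Trim28, which recruits Setdb1 to place the repressive mark H3K9me3 on histones. The HUSH complex reads that mark and spreads it with Setdb1 and Morc2a. In embryonic stem cells this route is a main means of keeping endogenous retroviruses silent.

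The stretches of DNA just upstream of Trim28, Morc3 and Zfp809 are shown because Trim28 is the member with the most reads and Zfp809 the one with the fewest, and because in these windows, as in that of Morc3, no annotated exon lies. The RefSeq start of Trim28 lies inside the span that GENCODE gives the gene, which begins further upstream. Each is the 250 bases before the start site in RefSeq, build GRCm38.p6, 5′ to 3′ on the gene's strand. Capitals mark GGGCGG (the GC box) or CCAAT, found on either strand.
Trim28 (chr7:13023902-13024151, + strand): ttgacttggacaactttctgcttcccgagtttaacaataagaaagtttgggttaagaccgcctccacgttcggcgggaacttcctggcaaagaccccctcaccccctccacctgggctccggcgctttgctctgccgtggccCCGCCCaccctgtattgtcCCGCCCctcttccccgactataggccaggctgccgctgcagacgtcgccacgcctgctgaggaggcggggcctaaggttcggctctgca
Morc3 (chr16:93831871-93832120, + strand): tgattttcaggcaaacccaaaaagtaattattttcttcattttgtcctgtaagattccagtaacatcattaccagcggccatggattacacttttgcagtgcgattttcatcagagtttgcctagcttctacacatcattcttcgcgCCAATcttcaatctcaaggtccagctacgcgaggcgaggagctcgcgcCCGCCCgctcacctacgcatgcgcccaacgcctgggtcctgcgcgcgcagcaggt
Zfp809 (chr9:22225453-22225702, + strand): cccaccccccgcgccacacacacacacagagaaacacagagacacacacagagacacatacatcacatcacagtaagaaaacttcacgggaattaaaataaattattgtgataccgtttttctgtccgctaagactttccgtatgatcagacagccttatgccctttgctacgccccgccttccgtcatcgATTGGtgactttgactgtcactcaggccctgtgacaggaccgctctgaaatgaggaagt
Trim28 held 2 GC boxes and no CCAAT, Morc3 held 1 of each, and Zfp809 held 1 CCAAT and no GC box, with no overlap between them. Of 32851 promoters of this length, 32.7% held GGGCGG and 33.8% held CCAAT. The letters CCGGAAG (6.91% of promoters), TGACGTCA (1.55%), the NRF1 motif (0.782%) and TATAAA (12.4%) were searched on both strands too and are not in these 3 windows. The windows held 17 (Trim28), 17 (Morc3) and 11 (Zfp809) CpG dinucleotides, against a median of 6 over all promoters.

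The libraries held 42322129 counts in B and 29264632 counts in A. Drosha itself had 166 ± 0.378 CPM (counts divided by the scaled library size, mean ± SD, n = 2), but a count over the whole gene does not check a knockout made within it. All 9 embryonic stem cell markers reached 1 CPM in both libraries. Levels per length are in TPM (counts divided by gene length and scaled to the same total in each library). Per exon length these markers ran from 10136 ± 263 TPM for Dppa5a, 1399 ± 33.0 for Pou5f1 and 892 ± 5.27 for Zfp42 down to 135 ± 6.06 for Klf4. Of the 50-base words of the longest Dppa5a transcript 38.6% occur in other genes, so its level is less certain. Of 8 fibroblast markers 3 reached 1 CPM in both libraries, Thy1 at 38.6 ± 0.107 TPM, Pdgfrb at 4.72 ± 0.482 TPM and Col1a1 at 0.920 ± 0.218 TPM, and in library A alone 6 did. None was at 0 reads, and Lum was lowest at 0.132 ± 0.0778 TPM. The CPM of all 8 summed to 56.1 in B and 61.4 in A, most of it Thy1, so the sum says little of the others. Of the 7 with at least 10 reads, 6 were lower in B, and the median log2 of B over A was -1.60. In such bulk RNA, fewer cells of a type and less RNA per cell cannot be told apart. The titles number the cells while the source names are the same, and separate cultures are not stated. Every SD thus measures the spread between these libraries, which may be technical. The p-values below compare these libraries only and rest on counting error or an assumed variation, not on a measured spread.

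All 8 genes were expressed, and Trim28 stood far above the others. In TPM from the union of annotated exons, the median of the 8 was 68.4, against 9.47 over the 18198 genes with at least 10 reads. All 8 reached 1 CPM in both libraries, as did 13949 of those genes. The order was Trim28, Mphosph8, Morc3, Setdb1, Morc2a, Pphln1, Zfp809 and Atf7ip, and the ranges over both libraries of each pair of neighbours did not overlap. The step was 12.2-fold from Trim28 to Mphosph8, 2.20-fold from Pphln1 to Zfp809, and 1.15- to 1.32-fold elsewhere. By longest transcript, Atf7ip and Zfp809 changed places, and Morc2a was 1.04-fold Pphln1.

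**Figure D1:**
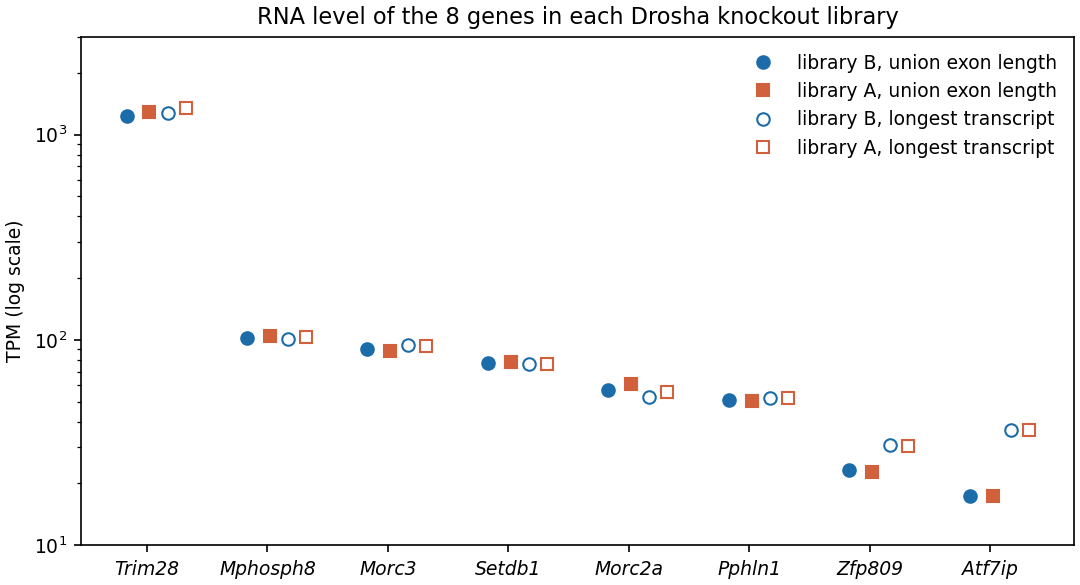
Level of each of the 8 genes in TPM (log axis) in library B (circles) and library A (squares), per union of exons (filled) or per longest transcript (open). Trim28 lies at 1231 TPM in B and 1295 TPM in A per union of exons, the other 7 between 17.4 and 104 TPM, and Atf7ip shows the widest gap between the lengths.

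Trim28 (ENSMUSG00000005566, chromosome 7, 12999114 to 13031035, plus strand), on build GRCm38 like all positions below, is the scaffold that KRAB zinc finger proteins bind. It had 81480 reads in B and 58811 reads in A, or 1231 TPM in B and 1295 TPM in A. It ranked 24 by mean CPM and 105 by mean TPM among all genes, at percentile 99.6 of the 12458 protein coding genes with at least 1 CPM. Of all reads of the 8 genes it held 68.0% in B (95% exact binomial interval 67.7 to 68.2) and 68.8% in A (68.5 to 69.1), intervals that cover counting error only. On the TPM scale its share was 74.6% in B and 75.4% in A. Its span overlaps that of Zbtb45 on the other strand (23.2 ± 2.12 CPM), with 0 shared exon bases. No 50-base word of the longest Trim28 transcript occurs in a transcript of another gene. Its relatives of the TIF1 family were far lower: Trim24, a co-regulator of nuclear receptors, had 57.0 ± 1.26 TPM, Trim33, a regulator of Smad signalling, 31.0 ± 0.727 TPM, and Trim66 1.69 ± 0.0842 TPM.

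Setdb1 (ENSMUSG00000015697, chromosome 3, 95323525 to 95357202, minus strand) trimethylates lysine 9 of histone H3 where Trim28 or HUSH brings it. It had 8433 reads in B and 5832 reads in A, or 77.3 TPM in B and 77.9 TPM in A. Trim28 was 15.9 times Setdb1 per exon length in B and 16.6 times in A. Of the other H3K9 methyltransferases, Ehmt2, which acts with Ehmt1 in mono- and dimethylation, was just above Setdb1, at 79.6 TPM in B and 83.6 TPM in A. Ehmt1 had 34.6 ± 0.432 TPM, Suv39h2 22.0 ± 1.16 TPM, Suv39h1 15.4 ± 0.0270 TPM and Setdb2 11.2 ± 0.219 TPM. Of the words of the longest Setdb1 transcript 6.66% occur in other genes, among them Gm4349 (8.96 ± 0.245 CPM) and, on the other strand, Gm37500 and Cers2 (58.6 ± 0.836 CPM).

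Atf7ip (ENSMUSG00000030213, chromosome 6, 136506167 to 136610862, plus strand) binds Setdb1 and stabilises it. It had 5734 reads in B and 3951 reads in A, or 17.4 TPM in B and 17.4 TPM in A. Its level per length depended on the annotation: the union of its exons spans 20726 bases and its longest transcript 8059, and by the longest transcript it had 36.2 TPM in B and 36.3 TPM in A, 2.08-fold as much. It stood at 0.224 ± 0.000580 times Setdb1 per exon union and 0.476 ± 0.00123 times by longest transcript. Its paralog Atf7ip2 was lower with either length, at 11.8 ± 0.416 TPM per exon union and 16.7 TPM by longest transcript. Atf7ip shares 83 exon bases with Gm44140 on the other strand, which was not among the genes counted.

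The HUSH subunits were present at unequal levels. Mphosph8 (ENSMUSG00000079184, chromosome 14, 56668248 to 56697430, plus strand), whose chromodomain binds methylated H3K9, had 5846 reads in B and 4076 reads in A, or 102 TPM in B and 104 TPM in A. Pphln1 (ENSMUSG00000036167, chromosome 15, 93398350 to 93491510, plus strand), the subunit periphilin, had 3669 reads in B and 2505 reads in A, or 50.7 TPM in B and 50.4 TPM in A. Mphosph8 was 2.04 ± 0.0303 times Pphln1 per exon union and 1.96 ± 0.0291 times by longest transcript. The remaining core subunit, TASOR, is named Fam208a in the annotation and is not among the 8 genes. Fam208a had 30.1 ± 0.528 TPM, below both. Mphosph8 was 3.43 ± 0.0982 times Fam208a per exon union and 2.33 ± 0.0667 times by longest transcript, and for Pphln1 these ratios were 1.68 ± 0.0232 and 1.19 ± 0.0164. The order Mphosph8, Pphln1, Fam208a held in both libraries with both lengths, but 23.3% of the words of Fam208a occur in other genes, so its level is less certain. Its paralog Fam208b had 6.26 ± 0.176 TPM. Mphosph8 shares 384 exon bases with Gm16973 on the other strand (8.44 ± 0.322 CPM), and Pphln1 starts 16 bases from Zcrb1 on the other strand (37.5 ± 1.14 CPM). Whether the authors' counting used strand is not stated, so reads in shared bases are uncertain.

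Morc3 lay above Setdb1 and Morc2a below it, though by longest coding transcript Morc3 (88.3 TPM) was only 1.02-fold Setdb1 (86.9 TPM). Morc3 (ENSMUSG00000039456, chromosome 16, 93832121 to 93876073, plus strand), a nuclear ATPase reported to silence endogenous retroviruses in mouse embryonic stem cells, had 7783 reads in B and 5249 reads in A, or 90.0 TPM in B and 88.5 TPM in A. Morc2a (ENSMUSG00000034543, chromosome 11, 3649191 to 3690477, plus strand), the ATPase that works with HUSH, had 5857 reads in B and 4279 reads in A, or 57.3 TPM in B and 61.0 TPM in A. Morc2a was 0.663 ± 0.0375 times Morc3 per exon union and 0.579 ± 0.0327 times by longest transcript. Morc2a shares 483 exon bases with the long noncoding RNA Tug1 on the other strand, which had 120.4 ± 1.65 CPM against 142 ± 5.03 CPM for Morc2a. Morc1, known for transposon silencing in the male germline, had 78.3 ± 1.69 TPM per exon union, between Morc3 and Morc2a, and 102 TPM by longest transcript, above the 94.0 TPM of Morc3. Morc4 had 2.69 ± 0.269 TPM, and Morc2b had 16 reads in B and 14 in A. Resf1, reported to act with Setdb1 on retroelements, had 55.7 ± 0.128 TPM. In the list of relatives of HUSH, MORC and ATF7IP, 7 of 8 genes reached 1 CPM, all but Morc2b, with a median of 11.5 TPM.

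**Figure D2:**
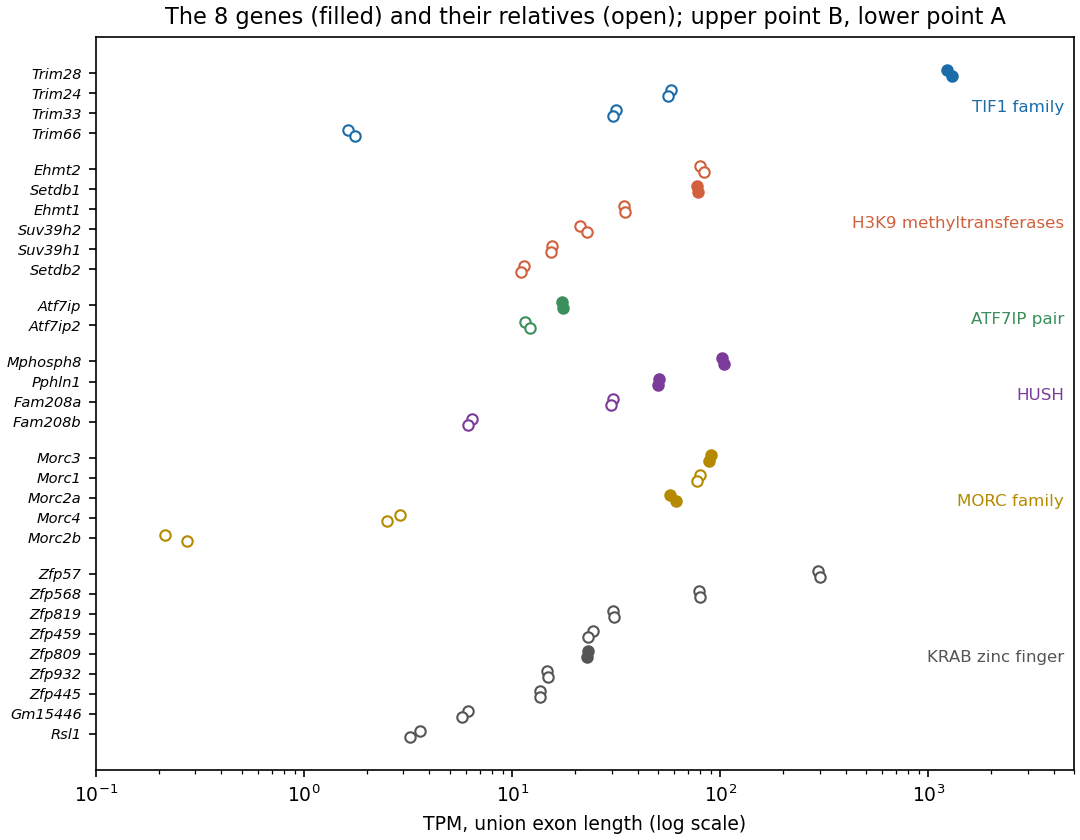
Level in TPM (log axis, union of exons) of the 8 genes (filled) and their relatives (open) by family, the upper point of each pair for library B and the lower for library A. Trim28 at 1263 TPM stands apart from its family, while Setdb1 (77.6 TPM) lies near Ehmt2 (81.6 TPM) and Morc3 (89.3 TPM) near Morc1 (78.3 TPM).

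Zfp809 (ENSMUSG00000057982, chromosome 9, 22225714 to 22243354, plus strand) binds the proline primer binding site of murine leukaemia virus and recruits Trim28 to it. It had 1091 reads in B and 737 reads in A, or 23.2 TPM in B and 22.8 TPM in A, the fewest reads of the 8 genes. Trim28 was 53.2 times Zfp809 per exon length in B and 56.8 times in A. Among 365 protein coding genes named Zfp and a number it ranked 57 by TPM, at percentile 84.4, where the median gene had 6.55 TPM. By CPM, which does not divide by length, it was at percentile 73.7, and by longest transcript at 88.2. No 50-base word of the longest Zfp809 transcript occurs in a transcript of another gene.

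**Figure D3:**
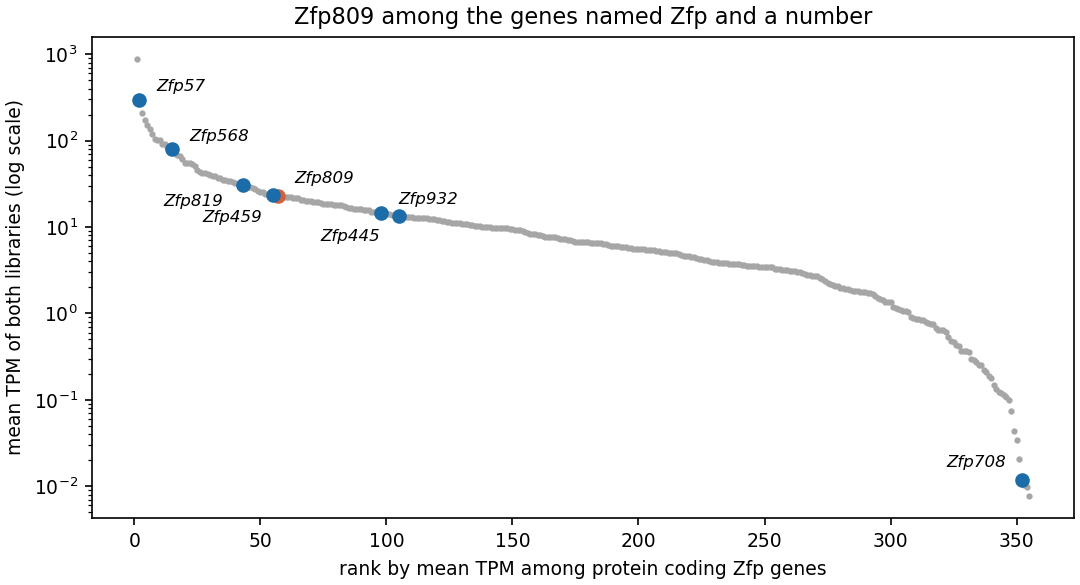
Mean TPM of both libraries (log axis) against rank for protein coding genes named Zfp and a number, with Zfp809 in orange, KRAB zinc finger genes of the list in blue and the 10 genes with no read not drawn. Zfp809 ranks 57, well below Zfp57 at 299 TPM.

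Other KRAB zinc finger genes covered a wide range, and 8 of the 10 listed reached 1 CPM, with a list median of 14.1 TPM. Zfp57, which protects imprinted regions, was highest at 299 ± 5.64 TPM. Zfp568, a repressor of a placental Igf2 transcript, had 79.6 ± 0.556 TPM and Zfp819 30.6 ± 0.320 TPM. Zfp459, at 24.4 TPM in B and 23.2 TPM in A per exon union, lay near Zfp809, but had 21.2 TPM against 30.6 TPM for Zfp809 by longest transcript. Zfp932 and Gm15446, which bind endogenous retroviruses, had 14.7 ± 0.0916 and 5.94 ± 0.250 TPM, with 45.2% and 48.8% of their words in other genes. Zfp708 was lowest, with 1 read in B and 0 in A, but all of its words occur in other genes, so its level cannot be read from these counts.

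The chromatin factors that work beside the 8 genes were expressed throughout. All 18 cofactors of Trim28 and Setdb1 reached 1 CPM, with a median of 46.0 TPM. Per exon union the highest were the heterochromatin protein Cbx5 at 225 ± 1.64 TPM, the NuRD ATPase Chd4 at 187 ± 0.286 TPM and the heterochromatin protein Cbx1 at 181 ± 6.06 TPM, and the lowest was Trim66. By longest transcript Cbx1 (263 TPM) and Kdm1a (246 TPM) led. All 6 other H3K9 methylation genes reached 1 CPM too, with a median of 21.5 TPM, led per exon union by Ehmt2, Ehmt1 and Suv39h2, with Zfp644 lowest at 11.6 ± 0.0379 TPM. By longest transcript Wiz (24.4 TPM) was above Suv39h2, which was lowest (18.2 TPM). The 6 DNA methylation genes had a median of 161 TPM. They were led by the methyltransferase cofactor Dnmt3l at 306 ± 6.60 TPM, Uhrf1, which guides maintenance methylation, at 246 TPM in B and 254 TPM in A, and the remodeller Hells at 173 ± 2.29 TPM, and Dnmt3a was lowest at 37.8 ± 0.0873 TPM. The 9 genes of histone H3.3 and chromatin assembly had a median of 47.9 TPM, per exon union from H3f3b at 503 ± 0.402 TPM, H3f3a at 178 TPM and the chaperone Daxx at 74.7 ± 1.92 TPM down to Asf1a at 15.1 TPM in B and 12.8 TPM in A and Hira at 13.9 ± 0.0928 TPM. Of the words of Hira 64.4% occur in Gm28539, and of H3f3a 30.3% occur in other genes, so their levels are less certain.

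Genes that act on retroelement RNA and DNA, and genes linked to retroelement activity, differed in level. Of 12 genes listed under restriction of retroelement RNA and DNA, 10 reached 1 CPM, with a median of 27.7 TPM. Whether each restricts retroelements was not tested. The list was led per exon union by L1td1 at 596 ± 4.97 TPM, the helicase Mov10 at 107 ± 4.30 TPM and Tex19.1 at 102 ± 4.28 TPM. By longest transcript Apobec3 (138 TPM) was above Mov10 (131 TPM) and Tex19.1 (88.8 TPM). Trex1 had 0 reads in both, where 3 reads would be 0.0711 CPM in B and 0.102 CPM in A, but 95.6% of its words are shared with Atrip. Of 9 genes of the two-cell-like state, in which the retrovirus MERVL is active, 1 reached 1 CPM and the median was 0.212 TPM, with Zscan4c highest at 1.82 TPM in B and 1.81 TPM in A. In library B alone 2 reached 1 CPM, and 0 reached 5 CPM in both. Zscan4d had 60 reads in B and 18 in A, Zscan4f 19 and 11, and Duxf3, the lowest by TPM, 2 and 0, and the Zscan4 genes share 49.6% to 95.3% of their words with other genes. Of 12 genes derived from or linked to retroelements 3 reached 1 CPM: Peg10, a domesticated gag-pol gene, at 164 ± 3.65 TPM, Rtl6 at 8.25 ± 0.0560 TPM and Rtl8a at 3.44 ± 0.772 TPM. In library A alone 5 reached 1 CPM, and 6 reached 0.5 CPM in both. Of the words of Rtl8a 85.0% and of Synb 76.1% occur in other genes, so their levels are uncertain. The median of this list was 0.486 TPM, and Fv1, Synb and Rtl4 had 0 reads in both libraries. Reads of the repeats themselves were not analysed here.

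The libraries were compared to see how far the 8 genes differed between them. Per gene, a two-sided exact binomial test asked whether B held more or fewer of the reads than its scaled depth predicts, and p-values were adjusted by Benjamini-Hochberg over all 18198 genes. It weighs counting error only, compares these libraries and not conditions, and has no replicate check. It called 2.29% of all genes and 4.27% of genes with at least 1000 reads. Of the 8 genes 1 was called, Trim28, with 1930.1 CPM in B and 2005 CPM in A, which is -0.055 as log2 of B over A (95% interval -0.070 to -0.039, adjusted p = 1.41e-09 in the exact binomial test). Over all genes 237 were called higher and 180 lower in B, against 180 and 242 with total counts as scaling and 311 and 152 with scaling factors from all genes. Under those scalings the log2 ratio of Trim28 was -0.062 and -0.048, and it was called lower in B in both. When edgeR's exact test allowed for a coefficient of variation of 0.1, Trim28 was not called. The coefficient estimated between these libraries was 2.25%, and no test was run at that value. Among genes with at least 1000 reads, 59.7% had a smaller absolute log2 ratio than Trim28. The median log2 ratio of the 8 genes was 0.0096, beside -0.00084 over all genes tested.

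The other 7 genes were not called, and none of the 8 differed by 2-fold or more, beside 0.0879% of all genes called at that size. Morc2a had 139 CPM in B and 146 CPM in A, a log2 ratio of -0.072 (interval -0.13 to -0.015, adjusted p = 0.210, exact binomial test), while Tug1 on the other strand had 0.028. Morc3 had 184 CPM in B and 179 CPM in A, a log2 ratio of 0.043. Zfp809 had 25.8 CPM in B and 25.1 CPM in A, a log2 ratio of 0.041 with the widest interval, -0.095 to 0.18, or 0.936- to 1.13-fold. The log2 ratio was 0.025 for Pphln1, 0.012 for Atf7ip, 0.0070 for Setdb1 and -0.0048 for Mphosph8, each with an interval that includes 0.

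**Figure D4:**
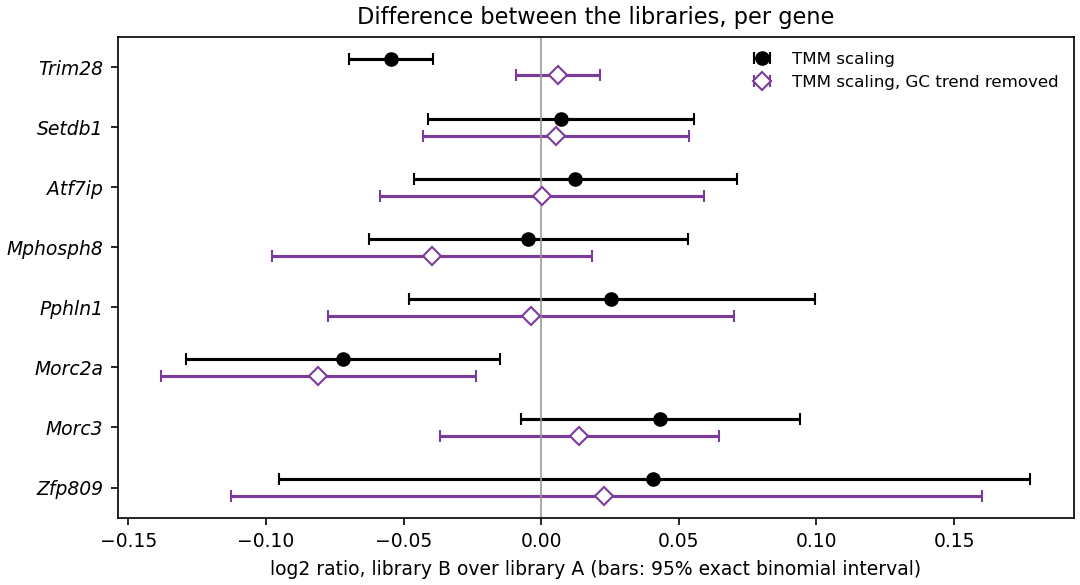
Log2 ratio of library B over library A per gene with its 95% exact binomial interval (counting error only), as scaled (black circles) and after removal of the GC trend (purple diamonds). Trim28 lies at -0.055 as scaled and at 0.0061 without the trend, where its interval includes 0, and Morc2a lies below 0 in both.

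The ratio of the libraries moved with the GC content of transcripts. Over genes with at least 100 reads in 20 bins of GC content, the median log2 ratio was 0.046 in the lowest bin and -0.083 in the highest. The longest Trim28 transcript has 59.6% GC, above 94.9% of these genes, and the 675 genes of its bin had a median of -0.061. With each bin's median removed, the log2 ratio of Trim28 was 0.0061 (interval -0.0092 to 0.021, adjusted p = 0.919, exact binomial test), and none of the 8 genes was called, beside 0.791% of all genes. Morc2a, at 49.7% GC, had -0.081 (adjusted p = 0.235, exact binomial test). The other 6 genes have 42.6% to 48.3% GC and had log2 ratios of -0.040 to 0.023 without the trend.

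**Figure D5:**
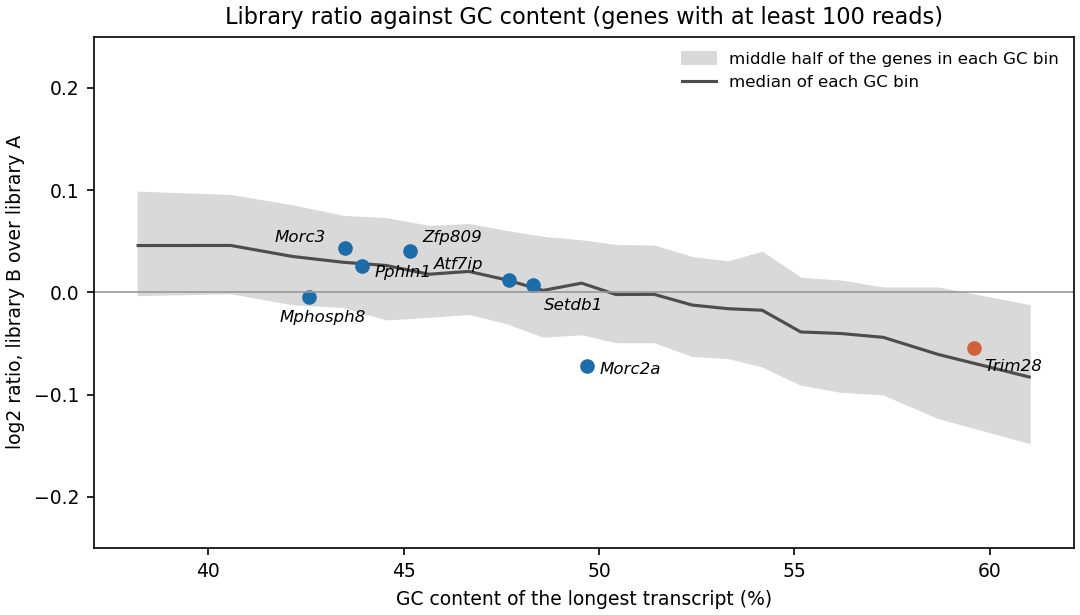
Log2 ratio of library B over library A against GC content (%) of the longest transcript, where the line and band give the median and the interquartile range of the genes with at least 100 reads in each of 20 bins. Trim28 (orange, -0.055) lies near the median of its bin (-0.061), and Morc2a (-0.072) lies below the band.

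Over all genes tested, 1.3% were called higher and 0.989% lower in B, and 4.27% either way among those with at least 1000 reads. Outside the 8 genes, 4 of the 80 tested genes in the 9 pathway lists were called higher in B and 0 lower. They were Cbx1 (log2 ratio 0.086, adjusted p = 0.00269), Atrx (0.081, adjusted p = 0.00474), which deposits H3.3 with Daxx, the histone chaperone Asf1a (0.26, adjusted p = 0.0475) and Peg10 (0.063, adjusted p = 0.0160), all by the exact binomial test. Asf1a shares 65.8% of its words with Mcm9, and its call was lost with total counts (adjusted p = 0.0595, exact binomial test). With the GC trend removed none of these was called (adjusted p of 0.170 to 0.631, exact binomial test), and the log2 ratio was 0.22 for Asf1a, 0.060 for Cbx1, 0.051 for Peg10 and 0.035 for Atrx. Among the markers, Dppa5a (0.071, adjusted p = 6.14e-20) and Tdgf1 (0.051, adjusted p = 0.00325) were higher and Utf1 (-0.22, adjusted p = 2.64e-25) lower in B by the same exact test. With the GC trend removed Tdgf1 was not called (0.034, adjusted p = 0.249, exact binomial test), while Dppa5a (0.062) and Utf1 (-0.14) were. Of the fibroblast markers Col3a1 (14 reads in B and 47 in A), Dcn (24 and 51), Col1a2 (16 and 36) and Postn (8 and 22) were called lower in B by that test too. With the GC trend removed each of these fibroblast markers was still called. Their log2 ratios were then -2.22 for Col3a1, -1.64 for Dcn, -1.63 for Col1a2 and -1.98 for Postn. Col3a1 (log2 ratio -2.26) was also the 1 gene that edgeR called when a coefficient of variation of 0.1 was allowed for. The part of these markers in the values of the 8 genes was not tested.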

How the data were processed

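Poly-A RNA of 2 Drosha knockout libraries was measured. Trizol extraction, the TruSeq kit and a reverse-stranded protocol are stated per the labels' protocols. The authors deposited unnormalized counts of reads for each Ensembl gene, with 1 file per library. The submitters' processing notes list STAR 2.4.2a, featureCounts 1.4.5-p1 and mm10 and give no roles. The annotation release, the use of strand in counting and the handling of multi-mapping reads were details not given in the sources used here.

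Symbols, positions, exon lengths and GC content came from GENCODE M21 on GRCm38, the build of mm10. These matched 97.5% of IDs; 1081 IDs with 0.163% of the counts stayed unmatched. Counts were scaled by TMM from genes with at least 10 reads (edgeR 4.0.16, R 4.3.3). TPM was computed from exon unions. Log2 ratios add 0.5 reads to each count. Genes were called at an adjusted p of 0.05. The edgeR quasi-likelihood test has no residual degrees of freedom here, so the exact binomial test was used (Python 3.11.15, scipy 1.17.1, numpy 2.4.6, pandas 2.3.3, matplotlib 3.10.9). It was first run on simulated counts with counting error, and with set fold changes or a set GC trend added. Such counts cannot check calls where libraries vary beyond counting error. DESeq2 1.42.0 gave size factors as an alternative. Shared 50-base words were counted for each gene's longest transcript. All 8 genes matched the RefSeq promoter table.

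The members and lists were chosen with earlier results of these data known. The text names all 8 members, Fam208a, Drosha, and every gene that shares exon bases with a member. Genes that overlap a member without shared exon bases are not all named. Of each other list it names the 3 highest and the lowest by TPM per exon union and every called gene. The other relatives in the family plot, among them Zfp459, Zfp932 and Gm15446, and Wiz, Apobec3 and Kdm1a were chosen after their values were seen. Mela and 2810474O19Rik, the older name of Resf1, had no match.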

Additional observations from a re-analysis of the deposited data

How the results depend on the processing

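No paired analysis was possible because both libraries belong to 1 group. All 8 genes reached 1 CPM at limits of 0.5 and 5 CPM and in each library alone, and the order by TPM was the same in each library. The exact binomial test called 417 genes, against 144 genes with the GC trend removed, 122 of them shared, 1 by the exact test of edgeR when a coefficient of variation of 0.1 was assumed, and 16 with a 2-fold minimum. Under each of these 3 settings 0 of the 8 genes were called. By construction these settings remove a trend, allow more variation or ask for a larger difference. Of 18198 genes tested, 1592 had an unadjusted p under 0.05 by the exact binomial test with the trend removed, and 215 by the exact test of edgeR. The sign of the log2 ratio turned for Setdb1 with total counts (-0.00024), for Trim28 (0.0061) and Pphln1 (-0.0039) with the GC trend removed, and for Mphosph8 with scaling factors from all genes (0.0015), a setting added after seeing the data; of these only Trim28 had been called. The share of Trim28 was 68.4% of reads and 75.0% of TPM, which divides by length. The percentile of Zfp809 was 84.4, against 88.2 by longest transcript, 73.7 by CPM and 81.9 among genes with at least 1 CPM, and 83.8 to 84.4 with either library left out. Of the alternatives run, 125 values stayed the same and 19 moved by more than the SD of the libraries. Another 8 were counts that fell beyond a set factor or a call that was lost, 5 were counts that rose beyond it, and 4 changed sign. Leaving out 1 library cannot move a mean of 2 libraries by more than their SD. For the TPM values and the Trim28 share, that setting could thus only come out the same.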
